A study of Mus musculus with 8 samples.

Results

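Bone marrow-derived macrophages were profiled by RNA-seq for 9 genes of blood coagulation, protease sensing and fibrinolysis, found by their symbols among the 54532 genes of the count table. They are F3, F10, F13a1, Thbd, the protease-activated receptor genes F2r, F2rl1 and F2rl3, and Plau and Plaur, and each symbol was listed once. The cells came from bone marrow of wild-type mice (WT, 4 libraries) and mice lacking Gsdmd, the gene of the pore-forming protein gasdermin D (Gsdmd-/-, 4 libraries). They had been grown for 6 days with macrophage colony-stimulating factor, and no treatment followed. According to the methods, macrophages were made from female C57BL/6J mice aged 6 to 8 weeks, the WT mice were bought from a commercial supplier, and the Gsdmd-/- mice were a gift from another institute and kept at the study's university. The genotypes thus came from separate sources, and genotype and colony cannot be told apart. Each library carries its own label, but nothing says that each came from a separate mouse, and the p-values below measure only the spread between these libraries.

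Total counts ran from 14935114 to 16794810 per library, and levels are given as CPM, which are counts scaled to a common library size, here with the TMM factors of edgeR. Gsdmd was at 75.3 ± 14.1 CPM in the WT and at 16.2 ± 1.56 CPM in the Gsdmd-/- libraries (SD, n = 4 each). All 8 macrophage markers checked had counts, with a summed level of 15340 to 23464 CPM in WT and 19408 to 23404 CPM in Gsdmd-/- libraries. Most of each sum was Lyz2, so it says little of the other markers. Cd68 read 414 and 424 CPM in WT 2 and WT 3, against 820 and 849 CPM in WT 1 and WT 4. Fcgr1 read 7.09 and 6.66 against 36.2 and 40.7 CPM, whereas Mertk and Adgre1 were higher in WT 2 and WT 3. Every Gsdmd-/- library was below every WT library for Adgre1 (log2 fold change -0.24, edgeR adjusted p = 0.310). In a principal component analysis WT 2 and WT 3 stood apart from the other 6 libraries on component 1, with scores of 45.4 and 38.8 against -25.9 to -7.19. Fits without them are therefore also given for the members and other coagulation genes that they moved most, but not for the cell type markers. Of 9 megakaryocyte and platelet markers, 7 had counts, and their summed level was 7.30 to 11.6 CPM in WT and 6.10 to 10.2 CPM in Gsdmd-/- libraries, with Gp1bb and Gp6 at 0 in all 8. In RNA from a whole culture, fewer cells of a type and less RNA per cell cannot be told apart.

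Coagulation starts when tissue factor, the product of F3, binds factor VII and the pair activates factor X, the product of F10. Activated factor X makes thrombin, which cuts fibrinogen into fibrin, and factor XIII, whose catalytic subunit F13a1 encodes, cross-links the fibrin. Thrombin also acts on cells by cutting protease-activated receptors, and thrombomodulin (Thbd) redirects it to activate protein C, which slows coagulation. Urokinase (Plau), held at the cell surface by its receptor (Plaur), turns plasminogen into plasmin, which dissolves fibrin. Macrophages are a known source of several of these proteins in inflamed tissue.

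The sequence before the transcription start was examined for the members with an entry among RefSeq promoters of the build GRCm38.p6. F3, F10, F2r, F2rl3 and Plaur had 1 entry each and F13a1 had 2, while Plau, Thbd and F2rl1 are named only. For 4 of these genes the 250 bases upstream of the RefSeq start are shown, 5′ to 3′ on the strand of the gene. For F2rl3 this start differs from the annotation used below, as the window ends at 72761658 and the gene there starts at 72761880. F2rl3 is shown as the receptor that was higher in Gsdmd-/- macrophages, F10 and Plaur as the pair whose levels followed each other over the libraries, and F3 as the promoter with the most motif matches. Capitals mark matches, on either strand, to a motif of AP-1 (TGANTCA), SP1 (GGGCGG), EGR factors (GTGGGCG) or PU.1 (GAGGAAG).
F2rl3, chr8:72761409-72761658, plus strand: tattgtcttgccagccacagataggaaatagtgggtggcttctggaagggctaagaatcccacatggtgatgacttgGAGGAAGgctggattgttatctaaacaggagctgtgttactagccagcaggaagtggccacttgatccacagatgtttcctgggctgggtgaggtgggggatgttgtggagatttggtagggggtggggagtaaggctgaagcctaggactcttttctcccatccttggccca
F10, chr8:13037058-13037307, plus strand: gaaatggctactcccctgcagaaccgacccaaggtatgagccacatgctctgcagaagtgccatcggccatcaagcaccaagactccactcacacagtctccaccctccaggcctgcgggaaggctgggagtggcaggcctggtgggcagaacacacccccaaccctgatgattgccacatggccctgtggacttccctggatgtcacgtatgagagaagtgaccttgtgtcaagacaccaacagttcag
Plaur, chr7:24462233-24462482, plus strand: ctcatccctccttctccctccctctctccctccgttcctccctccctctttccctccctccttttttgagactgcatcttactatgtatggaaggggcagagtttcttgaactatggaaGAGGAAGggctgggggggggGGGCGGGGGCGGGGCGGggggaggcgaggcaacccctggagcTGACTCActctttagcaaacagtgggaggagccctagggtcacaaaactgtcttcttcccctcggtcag
F3, chr3:121723287-121723536, plus strand: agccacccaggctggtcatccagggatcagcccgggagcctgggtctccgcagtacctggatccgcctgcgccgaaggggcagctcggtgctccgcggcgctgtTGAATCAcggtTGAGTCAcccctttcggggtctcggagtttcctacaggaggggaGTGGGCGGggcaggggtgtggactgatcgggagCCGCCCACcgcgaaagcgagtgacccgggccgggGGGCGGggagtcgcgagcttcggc
The F3 window held 2 AP-1, 3 SP1 and 2 EGR matches, and here each EGR match overlaps an SP1 match. The Plaur window held 1 AP-1, 3 SP1 and 1 PU.1 match, the F2rl3 window 1 PU.1 match, and the F10 window 0. Of 32851 mouse promoter windows of this length, 6.75% held the AP-1, 32.7% the SP1, 7.02% the EGR and 10.6% the PU.1 motif. A match is a match of letters and does not show that the factor binds there.

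The members ranged from some of the most abundant transcripts of these cells to a gene that was not detected. Divided by the exon length of the gene, the highest mean levels over the 8 libraries were those of Plau, at 389 CPM per kb, and Plaur, at 333 CPM per kb, whose library ranges overlapped. By CPM they ranked 101 and 109 among all genes of the table. F10 followed at 27.8 CPM per kb (18.7 to 44.6) and F3 at 11.1 CPM per kb (9.57 to 13.6), each apart from its neighbours in the order. Thbd, at 2.15 CPM per kb, overlapped F2rl3, at 1.34 CPM per kb, and F2r (0.382 CPM per kb) overlapped F13a1 (0.332 CPM per kb). F2rl1, which encodes the trypsin and tryptase receptor PAR2, had 0 counts in all 8 libraries, and a count of 0 allows up to 3 counts, or 0.177 to 0.199 CPM, for counting error only.

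**Figure D1:**
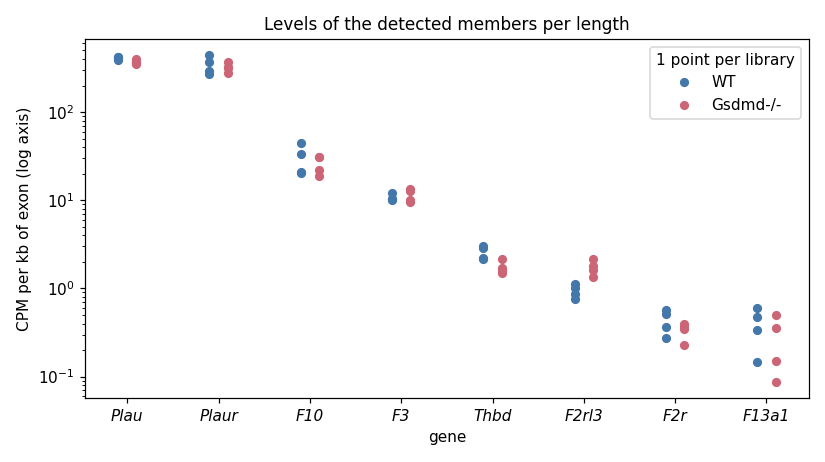
Levels of the 8 detected members in CPM per kb of exon, on a log axis, with 1 point per library (blue, WT; red, Gsdmd-/-). Plau and Plaur lie at 272 CPM per kb or more in every library, while F2r and F13a1 reach at most 0.605 CPM per kb. F2rl1, at 0, is not drawn.

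Of the 9 members, 8 had enough counts to enter the quasi-likelihood test of edgeR, which covered 12911 genes. None of the 8 had an adjusted p under 0.05, where 0.349% of all genes tested did, and the lowest was 0.162 for F2rl3. A looser cutoff asked for a log2 fold change of 0.5 or more in either direction with an unadjusted p under 0.05, and here 2 of the 8 were called, F2rl3 higher and Thbd lower in Gsdmd-/- macrophages. That cutoff called 4.83% of all genes tested, 1.54% as higher and 3.28% as lower. An unadjusted p under 0.05 alone was also reached by these 2 members, 1 of them higher (4.74% of all genes) and 1 lower (7.30% of all genes). The median log2 fold change of the 8 was -0.18, and that of all genes tested was -0.01.

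**Figure D2:**
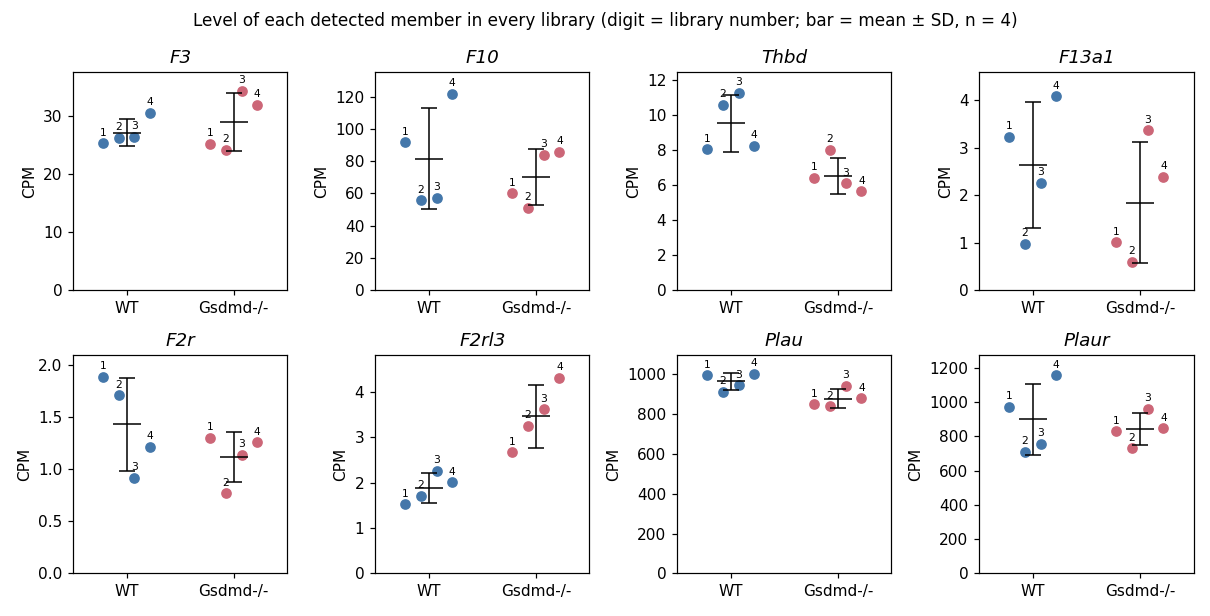
CPM of the 8 detected members in each library, with the library number beside each point and the mean ± SD (n = 4) in black. F2rl3 lies between 1.52 and 2.26 CPM in WT and between 2.67 and 4.31 CPM in Gsdmd-/- libraries. Thbd is lower in every Gsdmd-/- library, and the genotypes overlap for the other 6 genes. They did not overlap for 7.60% of all genes tested.

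Among the thrombin receptors, F2rl3 was higher in Gsdmd-/- macrophages at the cutoff but not by adjusted p, and F2r was not distinguishable between the genotypes. F2rl3 (ENSMUSG00000050147, chromosome 8 from 72761880 to 72763874, plus strand) encodes PAR4, a thrombin receptor best known from platelets. It had 25, 28, 37 and 33 counts in WT libraries 1 to 4 and 45, 55, 57 and 65 counts in Gsdmd-/- libraries 1 to 4. Every Gsdmd-/- library was thus above every WT library, by raw count and by CPM. Its level was 1.88 ± 0.325 CPM in WT and 3.46 ± 0.689 CPM in Gsdmd-/- libraries (SD, n = 4 each), which is 1.84-fold higher by the fit (log2 fold change 0.88, with a standard error, SE, of 0.222, edgeR unadjusted p = 0.00253, adjusted p = 0.162). Libraries of the genotypes did not overlap for 7.60% of all genes tested, and for F2rl3 the exact permutation test over libraries gave p = 0.0286 (two-sided), the smallest that 4 against 4 allow. Without WT 2 and WT 3 the log2 fold change was 0.96 (unadjusted p = 0.00574 by edgeR, adjusted p = 0.148), and the gene was past the cutoff in each of 18 alternative fits, with adjusted p-values over them from 0.0362 to 0.368. The counts are low, with 123 in all WT and 222 in all Gsdmd-/- libraries.

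F2r (ENSMUSG00000048376, chromosome 13 from 95601803 to 95618487, minus strand) encodes PAR1, a thrombin receptor of many cell types. It had 31, 28, 15 and 20 counts in the WT and 22, 13, 18 and 19 counts in the Gsdmd-/- libraries, with the genotypes mixed. The levels were 1.43 ± 0.446 and 1.12 ± 0.243 CPM (SD, n = 4 each, log2 fold change -0.36, SE 0.305, adjusted p = 0.694, and -0.48 without WT 2 and WT 3).

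F2rl1 (chromosome 13 from 95511732 to 95525227) and F2r are next to each other, 76.6 kb apart with no protein-coding gene between them, and F2rl2 (chromosome 13 from 95696853 to 95702739) lies 78.4 kb beyond F2r. F2rl2 encodes PAR3, which in mice is known as a cofactor that helps thrombin cut PAR4. It is no member but was the receptor gene with the most counts, at 69.3, 31.5, 31.5 and 64.1 CPM in the WT and 41.3, 39.4, 55.6 and 50.2 CPM in the Gsdmd-/- libraries. Every Gsdmd-/- library lay between the low pair WT 2 and WT 3 and the high pair WT 1 and WT 4. With all libraries its log2 fold change was -0.07 (adjusted p = 0.940), and without WT 2 and WT 3 it was -0.52 (adjusted p = 0.135, the lowest over the alternatives), which is past the cutoff. At neighbouring positions on 1 chromosome, the 3 receptor genes were thus at 0, at 0.769 to 1.89 CPM (F2r) and at 31.5 to 69.3 CPM (F2rl2).

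Thbd was lower in Gsdmd-/- macrophages at the cutoff but not by adjusted p, and the call was lost without WT 2, WT 3 or Gsdmd-/- 4. Thbd (ENSMUSG00000074743, chromosome 2 from 148404466 to 148408188, minus strand) had 8.03, 10.6, 11.2 and 8.22 CPM in the WT and 6.40, 7.98, 6.09 and 5.64 CPM in the Gsdmd-/- libraries. The highest pair was WT 2 and WT 3. The lowest WT library was above the highest Gsdmd-/- library by 8.03 against 7.98 CPM (no overlap for 7.60% of all genes tested). By raw count the genotypes overlapped for Thbd, with 132 in WT 1 and 135 in both WT 4 and Gsdmd-/- 2. The means were 9.51 ± 1.63 and 6.53 ± 1.02 CPM (SD, n = 4 each), a fold of 0.687 (log2 fold change -0.54, SE 0.166, edgeR unadjusted p = 0.00819, adjusted p = 0.248; exact permutation test, two-sided, p = 0.0286). Without WT 2 and WT 3 the log2 fold change was -0.32 (unadjusted p = 0.0935 by edgeR, adjusted p = 0.491), and the gene was past the cutoff in 14 of 18 alternative fits, with adjusted p-values from 0.0183 to 0.536. The other 4 were this one and those without WT 2, WT 3 or Gsdmd-/- 4, whose log2 fold changes were -0.49, -0.45 and -0.48.

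Thrombomodulin also marks endothelial cells and a subset of dendritic cells, so markers of both were set beside it. All 6 dendritic markers had counts in some library, with a summed level of 21.1 to 52.4 CPM in WT and 16.8 to 21.3 CPM in Gsdmd-/- libraries. In WT 2 and WT 3, where Thbd was highest, the sum was 52.4 and 48.6 CPM, of which Clec9a held 49.1 and 45.3 CPM, while Flt3 was at 0 in every WT library. Clec9a was itself past the cutoff (log2 fold change -0.95, edgeR unadjusted p = 0.0164, adjusted p = 0.304). The other dendritic markers did not follow it, with Zbtb46 at 2.69 and 2.26 CPM in WT 2 and WT 3 against 2.25 and 3.10 CPM in WT 1 and WT 4, and Ccr7 at 0 and 0.183 CPM against 0.426 and 1.22 CPM. Of 7 endothelial markers 6 had counts, with a sum of 34.6 to 69.9 CPM in WT and 50.0 to 82.2 CPM in Gsdmd-/- libraries, mostly from Kdr, which was lowest in WT 2 and WT 3 (23.6 and 21.1 CPM), and Tek was at 0 in all 8. Other endothelial markers were lower in Gsdmd-/- libraries at the cutoff, namely Esam (0.25 times the WT level by the fit, edgeR adjusted p = 0.382) and Cdh5 (log2 fold change -0.51, adjusted p = 0.402). As for Thbd, WT 2 and WT 3 were the highest libraries for Esam, at 5.87 and 4.95 CPM against 0.355 to 0.929 CPM in the other 6, and for Tie1, at 1.89 and 1.83 CPM against 0.122 to 0.663 CPM. They were also highest for Pecam1, at 0.550 and 0.855 CPM. The part of other cell types in the level of Thbd was not tested.

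Expression of the initiating factors F3 and F10 did not pass the test in either direction. F3 (ENSMUSG00000028128, chromosome 3 from 121723537 to 121735048, plus strand) was at 25.3, 26.2, 26.4 and 30.6 CPM in the WT and 25.2, 24.2, 34.3 and 32.0 CPM in the Gsdmd-/- libraries. It varied little, with a highest library 1.42-fold above the lowest, and both extremes were Gsdmd-/- libraries. Means of 27.1 ± 2.34 and 28.9 ± 4.99 CPM (SD, n = 4 each) gave a log2 fold change of 0.09 (SE 0.130, adjusted p = 0.821), and over the alternatives this ran from 0.00 to 0.16.

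F10 (ENSMUSG00000031444, chromosome 8 from 13037308 to 13056676, plus strand) was at 91.5, 55.8, 57.3 and 122 CPM in the WT and 60.0, 51.0, 83.8 and 85.6 CPM in the Gsdmd-/- libraries. WT 1 and WT 4 were above all other libraries, whereas WT 2 and WT 3 lay among the lower Gsdmd-/- libraries. With all libraries the log2 fold change was -0.22 (81.6 ± 31.4 against 70.1 ± 17.3 CPM, SD, n = 4 each, SE 0.261, adjusted p = 0.783). Without WT 2 and WT 3 it was -0.61 (unadjusted p = 0.0153 by edgeR, adjusted p = 0.227), which is past the cutoff, and without WT 4 it was 0.040. Over the alternatives the adjusted p ran from 0.227 to 0.934. The gene of factor VII, F7 (chromosome 8 from 13026034 to 13035809), ends 1498 bases before F10 and had 40.5, 33.6, 36.3 and 59.9 CPM in the WT and 22.9, 21.8, 42.1 and 41.3 CPM in the Gsdmd-/- libraries. Its log2 fold change was -0.41 (adjusted p = 0.570), and without WT 2 and WT 3 it was -0.65 (adjusted p = 0.357), past the cutoff. Over the 8 libraries its log2 CPM followed that of F10 with Pearson's r = 0.86 (Spearman's rho = 0.83). Proz, the gene of protein Z, 4.24 kb beyond F10, followed the other way (r = -0.52, rho = -0.74), at 3.71 to 6.54 CPM. These correlations are descriptions over 8 libraries that include WT 2 and WT 3.

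F13a1 (ENSMUSG00000039109, chromosome 13 from 36867178 to 37050244, minus strand) had 53, 16, 37 and 67 counts in the WT and 17, 10, 53 and 36 counts in the Gsdmd-/- libraries. It was the most variable member, 6.89-fold higher in WT 4 than in Gsdmd-/- 2, with both genotypes spread over most of that range. The levels of 2.64 ± 1.33 and 1.84 ± 1.27 CPM (SD, n = 4 each) did not differ by more than this spread (log2 fold change -0.53, SE 0.539, adjusted p = 0.749). Without WT 2 and WT 3 the log2 fold change was -1.01 (adjusted p = 0.459). The antisense genes Gm49144 and Gm30489 overlap F13a1, and whether reads were counted by strand is not given in the sources used here.

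The urokinase system held the highest levels. Plau (ENSMUSG00000021822, chromosome 14 from 20836660 to 20843385, plus strand) was at 995, 913, 946 and 1004 CPM in the WT and 849.65, 840.3, 944 and 879 CPM in the Gsdmd-/- libraries. It was the steadiest member, with 1 Gsdmd-/- library, number 3, within the WT range and the other 3 below it. The means of 964 ± 42.5 and 878 ± 46.8 CPM (SD, n = 4 each) gave a log2 fold change of -0.13 (SE 0.0794, adjusted p = 0.552), which ran from -0.19 to -0.11 over the alternatives. Here 63269 counts in the WT and 56686 in the Gsdmd-/- libraries make counting error small beside the spread between libraries.

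Plaur (ENSMUSG00000046223, chromosome 7 from 24462484 to 24475968, plus strand) was at 973, 711, 758 and 1157 CPM in the WT and 829, 731, 961 and 848 CPM in the Gsdmd-/- libraries. As for F10, the highest library was WT 4, and WT 2 and WT 3 were among the lowest. The means of 899.6 ± 206 and 842 ± 94.5 CPM (SD, n = 4 each) gave a log2 fold change of -0.10 (SE 0.156, adjusted p = 0.851). Without WT 2 and WT 3 it was -0.34 (unadjusted p = 0.0178 by edgeR, adjusted p = 0.242, the lowest over the alternatives), and without WT 4 it was 0.052.

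Thus WT 2 and WT 3 differed from WT 1 and WT 4 for several members, and in both directions. Their mean was 0.531 times that of WT 1 and WT 4 for F10, 0.689 times for Plaur and 0.443 times for F13a1, but 0.930 times for Plau and 0.941 times for F3, and 1.34 times for Thbd. Over the 8 libraries log2 CPM of F10 and Plaur had r = 0.95 (rho = 0.95), F10 and F13a1 r = 0.87 (rho = 0.90), and F13a1 and Plau r = 0.84 (rho = 0.79). F10 and Thbd had r = -0.36 (rho = -0.21). After the mean of each genotype was removed, F10 and Thbd had r = -0.91, and F10 and Plaur still had r = 0.95. F2rl3 had r = -0.08 to F10, r = -0.12 to Plaur, r = -0.58 to Plau and r = -0.70 to Thbd. After the mean of each genotype was removed these were 0.23, 0.048, 0.23 and 0.011. The summed level of 6 monocyte markers was 74.2 and 77.7 CPM in WT 2 and WT 3, 149 and 193 CPM in WT 1 and WT 4, and 93.0 to 117 CPM in the Gsdmd-/- libraries. Its part in the levels of F10, Plaur and F13a1 was not tested.

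**Figure D3:**
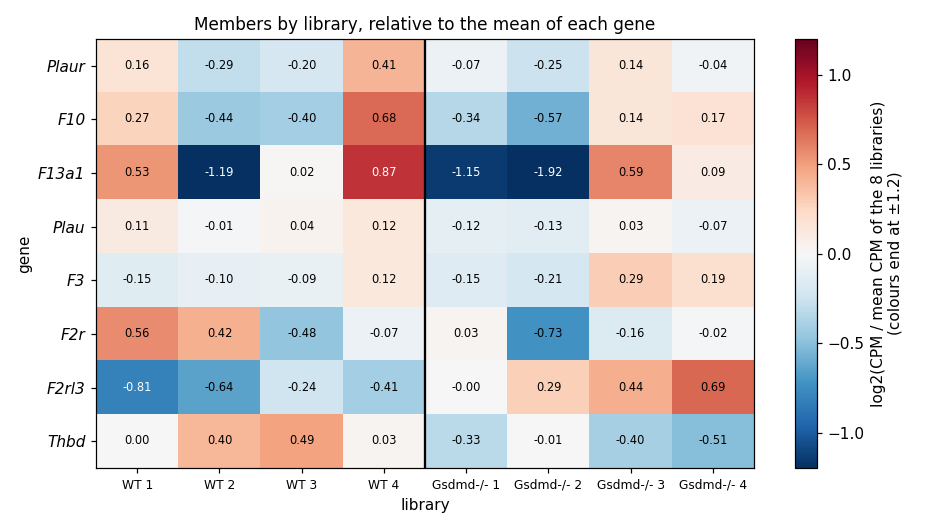
Level of each detected member in each library as log2 of CPM over the mean CPM of the gene in the 8 libraries (red, above the mean; blue, below; rows are genes and columns libraries, with a line between WT and Gsdmd-/-). F10 reads -0.44 and -0.40 in WT 2 and WT 3 and 0.68 in WT 4, while F2rl3 is below 0 in all WT libraries and Thbd is below 0 in all Gsdmd-/- libraries.

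Genes with the most similar pattern were looked up among 12037 tested genes with a mean of at least 1 CPM, by Pearson's correlation of log2 CPM over the 8 libraries. So large a search returns high values for any pattern. The closest were St3gal5 (r = 0.998) and BC024978 (r = 0.99) for F10, Ltbr (r = 0.99) and H2afy (r = 0.99) for Plaur, Myd88 and Vhl (both r = 0.97) for Plau, and Gclm (r = 0.95) for F3. H2afy was also the next closest to F10 (r = 0.97). For the other members they were H2-DMa (r = 0.97) for F13a1, Wdyhv1 (r = 0.98) for Thbd, 2610301B20Rik (r = 0.97) for F2rl3 and Slc37a3 (r = 0.94) for F2r.

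The members were then read against a list of 49 genes of coagulation and fibrinolysis, which contains all 9. Of these 49 genes, 7 had 0 counts in all 8 libraries, among them Fgb and Fgg for fibrinogen chains and Proc for protein C, and 29 were tested. Of the 29, 11 had a positive and 18 a negative log2 fold change. Their median was -0.07, against -0.01 for all genes. None had an adjusted p under 0.05 (0.349% of all genes), and 5 had an unadjusted p under 0.05, of which 3 were higher (4.74% of all genes) and 2 lower (7.30% of all genes). At the cutoff, 4 of the 29 were called (4.83% of all genes), F2rl3 and Vkorc1 as higher and Thbd and Procr as lower. By other tools, DESeq2 and the exact test of edgeR each gave an adjusted p under 0.05 for 2 of the genes, F2rl3 and Procr.

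**Figure D4:**
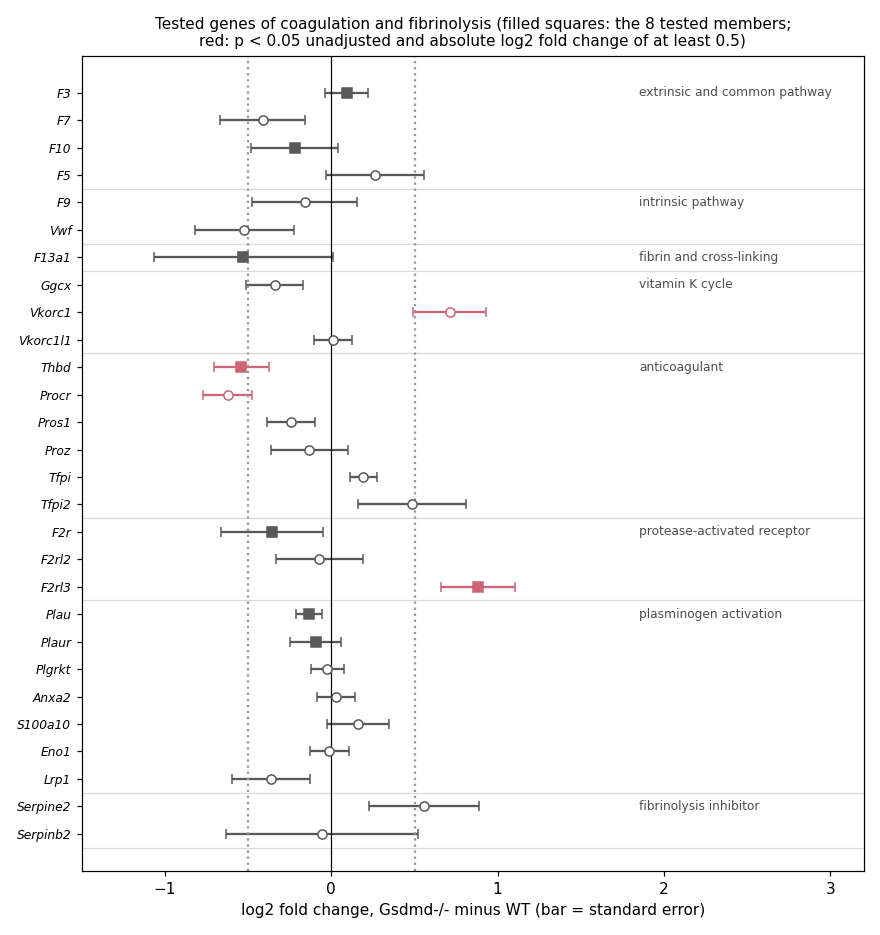
Log2 fold change of 28 of the 29 tested genes of the list, Gsdmd-/- minus WT, with the SE as bars and genes grouped by role from top to bottom. Squares are the 8 tested members, dotted lines mark an absolute log2 fold change of 0.5, and red marks the genes past the cutoff, F2rl3 (0.88) and Vkorc1 (0.71) on the right and Thbd (-0.54) and Procr (-0.62) on the left.

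Procr encodes the endothelial protein C receptor, which presents protein C to the thrombin-thrombomodulin complex. It was at 74.8, 107, 115 and 116 CPM in the WT and 64.9, 57.0, 79.0 and 66.8 CPM in the Gsdmd-/- libraries. Only Gsdmd-/- 3 was above WT 1, and the other 3 Gsdmd-/- libraries were below all WT libraries. The log2 fold change was -0.62 (103 ± 19.3 against 66.9 ± 9.11 CPM, SD, n = 4 each, SE 0.149, edgeR unadjusted p = 0.00176, adjusted p = 0.134). Unlike for Thbd, it was past the cutoff in all 18 alternative fits, with -0.51 without WT 2 and WT 3, and its adjusted p was 0.0334 without WT 1 and 0.00537 to 0.398 over the alternatives.

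Vkorc1, whose product recycles vitamin K for the carboxylation of factors such as factor X, had 2.01 ± 0.406 CPM in WT and 3.30 ± 0.590 CPM in Gsdmd-/- libraries (SD, n = 4 each) without overlap. Its log2 fold change was 0.71 (SE 0.221, edgeR unadjusted p = 0.00892, adjusted p = 0.253). Its paralog Vkorc1l1 was at 60.8 ± 9.78 and 61.1 ± 2.65 CPM (SD, n = 4 each, log2 fold change 0.01, adjusted p = 0.987). Tfpi, the inhibitor of the tissue factor and factor VII complex, had no overlap either, at 26.5 ± 1.34 and 30.3 ± 1.41 CPM (SD, n = 4 each), but a log2 fold change of 0.19 (adjusted p = 0.395). Such a lack of overlap was seen for 7.60% of all genes tested.

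Of the other genes around plasmin, Plat, the tissue plasminogen activator, had 2 counts in each genotype, and Plg, plasminogen itself, had 1 count in all. The plasminogen-binding proteins Anxa2 (log2 fold change 0.03), S100a10 (0.16), Eno1 (-0.01) and Plgrkt (-0.02) had adjusted p-values from 0.779 to 0.978. Lrp1, a large endocytic receptor, was at 3542 ± 1034 and 2754 ± 663 CPM (SD, n = 4 each, log2 fold change -0.36, adjusted p = 0.591). The log2 fold change of Lrp1 was -0.11 without WT 2 and WT 3, and without WT 4 it was -0.54, past the cutoff (adjusted p = 0.153, against 0.133 to 0.918 over the alternatives). Pros1, for the protein C cofactor protein S, was at 130 ± 27.6 and 109.8 ± 9.72 CPM (SD, n = 4 each, log2 fold change -0.24, adjusted p = 0.555), and without WT 2 and WT 3 its log2 fold change was 0.038.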

How the data were processed

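RNA from untreated macrophages was sequenced from 4 WT and 4 Gsdmd-/- libraries, made with a TruSeq kit per the labels. The authors deposited 1 table of raw read counts per gene, not normalized. The submitters' processing notes name the build mm10, while the aligner, counting tool and annotation are not given in the sources used here. Positions and exon lengths came from GENCODE M21 (GRCm38). Counts were filtered with filterByExpr, scaled by TMM and compared with the quasi-likelihood test in edgeR 4.0.16 (R 4.3.3), two-sided, without covariates besides genotype and with Benjamini-Hochberg adjustment over 12911 genes. The study's own cutoff for genes was also used (a log2 fold change of 0.5 or more in either direction with an unadjusted p under 0.05). CPM use the TMM factors, log2 CPM a prior count of 2. Intervals and limits for counts of 0 cover counting error only. As a check of the code, the test was also run on simulated counts, whose outcome is not reported here.

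All 9 members were named. Other genes of the list were named if past a threshold or at a mean of at least 10 CPM, and Plat, Plg, Proz, Fgb, Fgg and Proc after their values were seen. Values of 1 gene of the list are not reported here. The members, lists and tests were chosen with earlier results of these data known. Alternatives were limma voom 3.58.1 (with and without sample weights), DESeq2 1.42.0, the edgeR exact test, RLE and upper-quartile scaling, no filter, a minimum of 10 counts per library, a replicate block, a log2 fold change of at least 1, and leaving out each library, or WT 2 and WT 3 together. The labels share replicate numbers, but same-numbered libraries were not paired by anything stated, and their deviations correlated from -0.20 to 0.18. No pair of libraries of a genotype agreed within sampling noise (chi-square per degree of freedom of 5.92 or more).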

Additional observations from a re-analysis of the deposited data

How the results depend on the processing

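The 9 genes are limited by 4 libraries a genotype, by low counts for F2rl3, F2r and F13a1, and by WT 2 and WT 3. Over all genes, 45 had an adjusted p under 0.05 and 623 were past the cutoff. DESeq2 gave 292 genes at the adjusted p (1 member and 2 genes of the list), the exact test of edgeR 246 (1 and 2), no filter 109 (1 gene of the list) and 1204 at the cutoff, and limma voom with sample weights 1792 and 1528 (2 members and 7 of the list, and 8 of the list at the cutoff). Without WT 2 and WT 3 there were 161 genes at the adjusted p and 7 of the list at the cutoff. A log2 fold change of at least 1 left 199 genes, 0 members and 0 of the list. Leaving out 1 library gave 14 to 84 genes at the adjusted p (0 members, 0 to 1 of the list) and 469 to 1022 at the cutoff (1 to 2 members, 3 to 7 of the list). Cutoff calls of F2rl3, Procr and Vkorc1 remained in all 18 alternative fits. With the replicate block 25 genes had an adjusted p under 0.05, 0 of them members, and the log2 fold change of F2rl2, not called, was 0.0057. The block changed no call at the cutoff among the members and the list, and only WT 2 correlated best with its own number.

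Changes of sign were seen for genes not called in the results as reported. Under other settings, F10 and F2rl2 were past the cutoff without WT 2 and WT 3, Vwf was past it with no filter, without WT 4 and with sample weights, and sample weights gave Vwf and Pros1 adjusted p-values of 0.0336 and 0.0243. Sample weights gave 0.084 for F10, 0.065 for Plaur, -0.067 for Vkorc1l1, 0.33 for F2rl2 and 0.052 for Eno1. Leaving out WT 2 and WT 3 gave 0.18 for Vwf, 0.038 for Pros1, -0.11 for Anxa2 and -0.11 for S100a10, no filter gave 0.0058 for Eno1, and limma voom gave 0.0099 for F2rl2. With 1 library left out, values ran from -0.37 to 0.040 for F10, -0.20 to 0.052 for Plaur, -0.075 to 0.10 for Vkorc1l1, -0.24 to 0.14 for F2rl2, -0.081 to 0.037 for Plgrkt, -0.047 to 0.13 for Anxa2 and -0.088 to 0.088 for Eno1. The cause was not tested.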

Other observations

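Vwf, the gene of von Willebrand factor, which carries factor VIII and tethers platelets, is best known from endothelial cells and megakaryocytes, yet it had 81.2 to 238 CPM in these cultures. It was at 113, 238, 201 and 81.2 CPM in the WT and 109, 131, 84.6 and 116 CPM in the Gsdmd-/- libraries, with WT 2 and WT 3 highest (log2 fold change -0.52, SE 0.296, adjusted p = 0.536; 0.18 without WT 2 and WT 3). It was past the cutoff with no filter, without WT 4 and with sample weights in limma voom, which gave -0.73 (adjusted p = 0.0336, against 0.125 to 0.874 in the other alternatives). Of the markers of its usual sources, Kdr had 21.1 to 77.8 CPM and was lowest in WT 2 and WT 3. Esam (5.87 and 4.95 CPM), Tie1 (1.89 and 1.83 CPM), Pecam1 (0.550 and 0.855 CPM) and Treml1 (6.35 and 5.98 CPM) were highest in WT 2 and WT 3, as Vwf was. The other megakaryocyte and platelet markers tested did not follow Vwf, with Itga2b at 1.70, 0.306, 0.794 and 1.46 CPM, Gp1ba at 1.46, 1.22, 1.16 and 1.76 CPM and Ppbp at 1.64, 2.08, 3.42 and 3.83 CPM in WT 1 to WT 4. Cdh5 had 2.78 to 5.86 CPM, Pecam1 0.122 to 0.855 CPM, and Tek, Gp1bb and Gp6 were at 0. Their part in the level of Vwf was not tested.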
